A study of Mus musculus with 2 samples.

Results

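The caveolins and cavins are the structural proteins of caveolae, and their 7 mouse genes, Cav1, Cav2, Cav3, Cavin1, Cavin2, Cavin3 and Cavin4, were taken by symbol through the gene identifiers of the GENCODE M21 annotation. All 7 were found among the 43346 mouse genes of the files. They were measured by total RNA-seq in whole urinary bladder of mice of the strain B6NCrl, an inbred C57BL/6 line, on postnatal day 0. The single group, untreated newborn bladder, held 2 pups from 1 litter, each sequenced once from 10 ng of total RNA above 200 nt with spike-in RNA added, and sex was not collected. The design held no treatment, age or tissue contrast, so the data give the level of each gene and how far the littermates differed. Each pup counted as a biological replicate (n = 2), and with 1 library per animal a test of one pup against the other has no residual degrees of freedom, so none was run.

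Caveolae are flask-shaped pits of the plasma membrane that are abundant in smooth muscle, endothelium, adipocytes and fibroblasts. Caveolins are hairpin membrane proteins that oligomerise into the membrane-embedded scaffold of the pit, and cavins are cytosolic coiled-coil proteins that assemble on it as a coat. Caveolae store membrane that flattens out under stretch and hold receptors, channels and nitric oxide synthase. In the bladder wall they line the membrane of detrusor muscle cells.

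The libraries held 43653536 expected counts in pup 1 and 32564256 in pup 2, and 13834 genes reached 1 TPM (a level scaled for transcript length and library depth) in both pups, the threshold used here for an expressed gene. For a gene of 1 kb, the limit that a count of 0 allows was 0.111 TPM in pup 1 and 0.139 TPM in pup 2. The tissue label was met by its markers, with 12 of 12 urothelial and 12 of 12 smooth muscle markers expressed. The erythroid list, with 6 of 8 genes expressed, summed to 21722 TPM in pup 1 and 59107 TPM in pup 2, and the macrophage list, with 10 of 10 expressed, to 621 and 1962 TPM. In whole tissue, fewer cells of a type and less RNA per cell cannot be told apart.

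The 3 caveolins differ in a segment known as the scaffolding domain, which lies beside the membrane hairpin and has been described as the contact for signalling partners. Translated from the GENCODE M21 coding sequences, Cav1 had 178 residues, Cav2 162 and Cav3 151. Cav1 and Cav3 were identical at 65.5% of 148 aligned residues, Cav1 and Cav2 at 35.4% and Cav2 and Cav3 at 34.9%. The 60 coding bases of the segment are shown 5′ to 3′ on the plus strand of GRCm38 (mm10), because they show how much closer Cav3 is to Cav1 than Cav2 is. Capitals mark bases that differ from Cav1.
Cav1, residues 82 to 101, chr6:17339161-17339220: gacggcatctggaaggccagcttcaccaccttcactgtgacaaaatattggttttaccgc
Cav3, residues 55 to 74, chr6:112472185-112472244: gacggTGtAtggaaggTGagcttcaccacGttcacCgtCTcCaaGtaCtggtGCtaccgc
Cav2, residues 67 to 86, chr6:17281943-17282002: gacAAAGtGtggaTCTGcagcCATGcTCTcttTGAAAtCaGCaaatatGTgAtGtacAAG
Cav3 differed from Cav1 at 14 of the 60 bases and kept 16 of 20 residues, and Cav2 differed at 31 bases and kept 7 of 20 residues.

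Cav1 also makes a pair of proteins from different start codons. The longer form, caveolin-1 alpha, begins in the first exon of transcript Cav1-201, and the shorter form, caveolin-1 beta, begins at an in-frame ATG in the next exon, which Cav1-202 reaches from a transcription start of its own. The 96 coding bases from the alpha start to the beta start are shown 5′ to 3′ with both ATG codons in capitals, from the plus strand of chr6:17306450-17307946, where 30 bases lie in the first exon and the rest in the second.
Cav1 alpha start to beta start: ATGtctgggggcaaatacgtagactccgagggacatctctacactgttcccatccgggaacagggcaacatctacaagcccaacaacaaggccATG
This stretch gives the alpha form the 31 residues that the 147-residue beta form lacks.

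The newborn bladder expressed 6 of the 7 genes, led by Cav1, with Cavin3 and Cavin1 next. The mean levels spanned from 1830 TPM for Cav1 to 0.245 TPM for Cavin4. Together the 7 genes made up 0.426% of all TPM in pup 1 and 0.338% in pup 2, or 4259 and 3381 TPM. The order Cav1, Cavin3, Cavin1, Cav2, Cavin2, Cav3, Cavin4 was the same in both pups. Cavin3 and Cavin1, the neighbours closest in level, lay within their spread of each other (mean ± SD), and the other neighbours were separated by more than their SDs. None of the 7 genes shared reads with another gene in the authors' estimate, whose posterior SD of the gene count was 0 for 7 of 7.

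**Figure D1:**
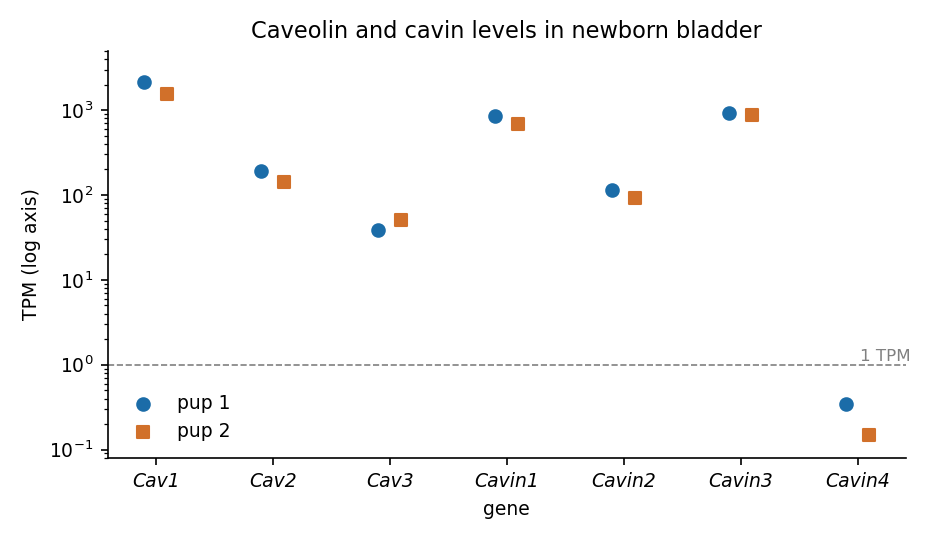
Level of each caveolin and cavin gene in TPM on a log axis, with pup 1 as circles and pup 2 as squares, 1 library each; the dashed line marks 1 TPM. Cav1 lies highest, at 2116.41 and 1544.57 TPM, and Cavin4 is the only gene with both pups under the line.

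Cav1 encodes the caveolin that caveolae outside striated muscle need in order to form. Its gene (ENSMUSG00000007655.12) lies at chr6:17306335-17341452 on the plus strand. Cav1 stood at 2116.41 TPM in pup 1 and 1544.57 TPM in pup 2 (1830 ± 404 TPM, SD, n = 2), rank 49 of 21474 annotated protein-coding genes by mean TPM. Pup 1 was the higher, and 151216 counts in pup 1 against 87224 in pup 2 made the counting error small. After scaling for depth, Cav1 was 1.30-fold higher in pup 1, a log2 ratio of pup 2 over pup 1 of -0.38 with a 95% interval of -0.39 to -0.37. That exact binomial (Clopper-Pearson) interval and those given for the other genes cover counting error alone, with PCR duplicates counted as reads, and say nothing about spread between animals.

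Cav2 encodes the caveolin that assembles with caveolin-1 and depends on it to leave the Golgi apparatus. Its gene lies at chr6:17281185-17289115 on the plus strand, ending 17.2 kb before Cav1 begins. Cav2 stood at 193.52 TPM in pup 1 and 143.2 TPM in pup 2 (168 ± 35.6 TPM, SD, n = 2), rank 792. Pup 1 was again the higher, by 1.28-fold, with a log2 ratio of -0.35 (95% interval -0.39 to -0.31). Cav1 exceeded Cav2 by 10.9-fold in pup 1 and 10.8-fold in pup 2, so the ratio of these neighbouring genes was nearly equal in both animals although both levels differed.

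Cav3 encodes the caveolin of skeletal and cardiac muscle, also described in some smooth muscle. Its gene lies on the same chromosome at chr6:112459505-112472872, 95.1 Mb beyond Cav1. Cav3 stood at 39.11 TPM in pup 1 and 50.8 TPM in pup 2 (45.0 ± 8.27 TPM, SD, n = 2), rank 2771. Pup 2 was the higher here, the reverse of Cav1 and Cav2. The scaled counts were 1.38-fold higher in pup 2, a log2 ratio of 0.47 with a 95% interval of 0.35 to 0.58, and Cav1 exceeded Cav3 by 54.1-fold in pup 1 and 30.4-fold in pup 2. Among 3946 genes with a mean count from 1000 to 3000, 3.55% differed at least as much between these pups.

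Cavin1, or PTRF, encodes the cavin that caveolae need in muscle and in other tissues alike. Its gene lies at chr11:100956733-100970887 on the minus strand. Cavin1 stood at 863.22 TPM in pup 1 and 678.52 TPM in pup 2 (771 ± 131 TPM, SD, n = 2), rank 151. Pup 1 was the higher by 1.20-fold, with a log2 ratio of -0.26 (95% interval -0.27 to -0.24). Among the 517 genes averaging 10000 counts or more, 19.3% differed at least as much, and the shares for Cav1 and Cav2 in that class were 7.16% and 9.48%. The Cav1 level was 2.45 times the Cavin1 level in pup 1 and 2.28 times in pup 2.

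Cavin2, or SDPR, encodes a cavin that bends the caveolar membrane and is needed for caveolae in some endothelia. Its gene lies at chr1:51289126-51302960 on the plus strand. Cavin2 stood at 113.6 TPM in pup 1 and 93.32 TPM in pup 2 (103 ± 14.3 TPM, SD, n = 2), rank 1262. The gap between pups, 1.14-fold in favour of pup 1 (log2 ratio -0.19, 95% interval -0.24 to -0.15), was matched or passed by 26.5% of 1822 genes with a mean count from 3000 to 10000.

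Cavin3, or PRKCDBP, encodes a cavin linked to the movement of caveolae and to signalling inside the cell. Its gene lies at chr7:105480083-105482300 on the minus strand. Cavin3 stood at 933.13 TPM in pup 1 and 870.52 TPM in pup 2 (902 ± 44.3 TPM, SD, n = 2), rank 125. With 26144 and 19488 counts, its log2 ratio was -0.01 (95% interval -0.04 to 0.02), and 96.3% of the 517 genes of its count class differed at least as much. The Cavin3 level rests on the length used by the authors, 1035 nt, where GENCODE M21 gives its transcript 1662 nt. With that longer length and the same counts, a setting chosen after seeing the data, the levels would be 559 TPM in pup 1 and 521 TPM in pup 2. Reads on the added 627 nt are not in the deposited counts, so these values are lower limits that could only rise. They lie below Cavin1, but the order of Cavin3 and Cavin1 at the longer length cannot be read from them.

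Cavin4, or MURC, encodes the cavin of skeletal and cardiac muscle. Its gene lies at chr4:48663514-48673502 on the plus strand. Cavin4 had 20 counts in pup 1 and 7 in pup 2, or 0.34 and 0.15 TPM (0.245 ± 0.134 TPM, SD, n = 2), rank 14459. Both values were above the limit that a count of 0 allows for a gene of 1 kb and below 1 TPM. The log2 ratio of -1.10 had a 95% interval of -2.59 to 0.20, so a difference between pups was not detectable at this depth.

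Between the pups, no member was 2-fold apart among the 6 that averaged 100 counts or more, where 1.98% of all 12734 genes with that count were. At least 1.2-fold lower in pup 2 were 2 of the 6, Cav1 and Cav2, beside 11.2% of all genes, and 1.2-fold higher in pup 2 was 1 of the 6, Cav3, beside 12.0%. This limit was chosen after seeing the data, and Cavin1, lower by 1.20-fold when rounded, fell just short of it. The count lower in pup 2 depended on the scaling: with spike-in counts it was 3 of 6, with Cavin1 added, beside 12.4% of all genes, and as a ratio of TPM it was 4 of 6, with Cavin1 and Cavin2 added, beside 22.2%. Of the 6, 5 had a log2 ratio below 0 and 1 above, where 52.8% of all genes were below 0, or 67.4% as a ratio of TPM. Their median was -0.23 beside -0.01 over all genes, and the 6 ratios lay within the central 95% of all genes, -0.49 to 0.70. The 6 tested members thus differed by less than 2-fold between the pups, as did most genes. Cav3 was the only tested member on the opposite side from Cav1.

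**Figure D2:**
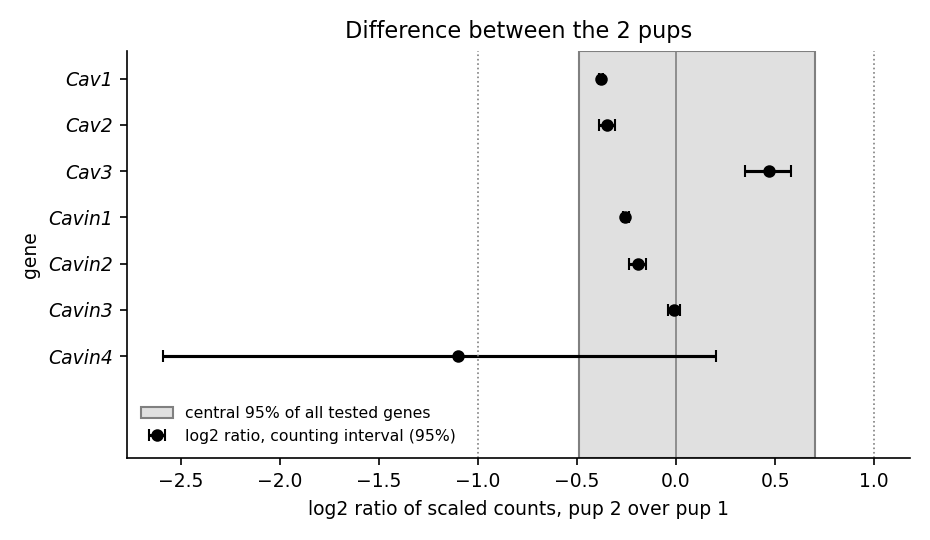
Log2 ratio of depth-scaled counts, pup 2 over pup 1, for each caveolin and cavin gene (points) with 95% counting intervals (bars); the shaded band holds the central 95% of all tested genes, dotted lines mark 2-fold. Cav1, Cav2, Cavin1 and Cavin2 lie left of 0, Cavin3 at -0.01 and Cav3 at 0.47, all inside the band, while the interval of Cavin4 runs from -2.59 to 0.20.

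The caveolins as a family summed to 2349 TPM in pup 1 and 1739 TPM in pup 2, and the cavins to 1910 and 1643 TPM. Cavin RNA was therefore slightly less abundant than caveolin RNA in both pups, at a ratio of 0.813 in pup 1 and 0.945 in pup 2 (0.879 ± 0.0930, SD, n = 2). With the longer Cavin3 length and the same counts, the mean ratio would be 0.699, a lower limit because reads on the added bases are not counted. Cav1 took 90.1% and 88.8% of caveolin TPM, Cav2 8.24% in each pup, and Cav3 1.66% and 2.92%. Among the cavins, Cavin3 took 48.8% and 53.0%, Cavin1 45.2% and 41.3%, Cavin2 5.95% and 5.68%, and Cavin4 0.0178% and 0.00913%. The Cavin1 level was 7.60 times the Cavin2 level in pup 1 and 7.27 times in pup 2.

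The 4 cavins were less alike in protein sequence than Cav1 and Cav3. By the coding sequences, Cavin1 had 392 residues, Cavin2 418, Cavin3 260 and Cavin4 362. The closest pair was Cavin1 and Cavin2, with 42.2% of aligned residues identical, followed by Cavin2 and Cavin3 with 41.5%. The farthest pair was Cavin3 and Cavin4 with 26.6%.

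By the transcript estimates, RNA annotated with the alpha start led for Cav1 in both pups. Protein forms were not measured, and Cav1-201 also holds the beta ATG. Transcript Cav1-201, which codes for the alpha form, took 79.97% of Cav1 TPM in pup 1 and 75.6% in pup 2. Transcript Cav1-202, which codes for the beta form, took 15.97% and 18.65%. Cav1-205, another alpha transcript, took 2.43% and 3.14%, and the other 7 of 10 transcripts took less. Over the 5 transcripts that begin at the alpha start codon, the share was 83.1% in pup 1 and 79.6% in pup 2 (81.4 ± 2.50%, SD, n = 2), and over the 3 that begin at the beta start it was 16.4% and 19.4% (17.9 ± 2.16%). Alpha exceeded beta RNA by 5.07-fold in pup 1 and 4.10-fold in pup 2, so the beta share was the higher in pup 2.

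**Figure D3:**
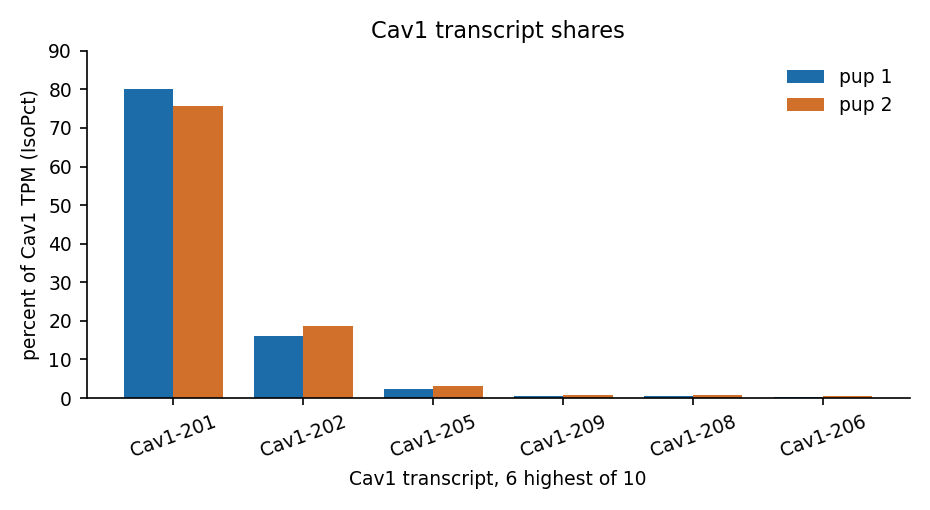
Percent of Cav1 TPM assigned to each of its 6 most abundant transcripts (bars, from 0), pup 1 and pup 2 side by side, 1 library each. Cav1-201 holds 79.97% and 75.6%, and Cav1-202 holds 15.97% and 18.65%.

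The split between Cav1-201 and Cav1-202 rests on a small part of each transcript. They share 2377 exonic nt, while 145 nt belong to Cav1-201 alone and, of those of Cav1-202 alone, 241 nt lie at its 5′ end and 128 nt at its 3′ end. The deposited posterior SD was 587.84 counts beside 26780.46 counts of Cav1-202 in pup 1, and 595.85 beside 18233.53 in pup 2. Whether the reads of Cav1-202 came from its 5′ or its 3′ end was not tested, so its share is an estimate of the transcript and no direct reading of the start site.

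The other genes used 1 transcript almost alone. Cav2-201 took 97.72% of Cav2 TPM in pup 1 and 97.02% in pup 2, and Cavin1-201 took 99.96% and 99.9% of Cavin1 TPM. Cav3, Cavin2, Cavin3 and Cavin4 had a single annotated transcript. The leading transcript was the same in both pups in 7 of 7 genes, of which only 3 had more than 1 transcript. Antisense genes overlap some members, and since the strand setting is not given in the sources used here, their reads could not be told from the members'. Gm15581, antisense to Cav1 and Cav2, had 3 counts in pup 1 and 2 in pup 2, and 9330175M20Rik, antisense to Cavin2, had 3 and 7.

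Cav1, the highest member in level, and the muscle-type Cav3 and Cavin4, the lowest, were set side by side in the 250 bases before their transcription starts. The sequences are RefSeq promoters of GRCm38.p6, given 5′ to 3′ on the plus strand, and capitals mark motif matches on either strand. The motif named GC box is GGGCGG. The motif named TATA box is TATAAA. An E-box, the site class of basic helix-loop-helix factors, is CANNTG. The last motif spelled here, CCAAT, has no match in the 4 windows shown. CArG and MEF2 boxes, motifs known from muscle genes, were also searched. In these 6 searches matches of different motifs did not overlap in the windows shown.
Cav1, alpha start, chr6:17306085-17306334: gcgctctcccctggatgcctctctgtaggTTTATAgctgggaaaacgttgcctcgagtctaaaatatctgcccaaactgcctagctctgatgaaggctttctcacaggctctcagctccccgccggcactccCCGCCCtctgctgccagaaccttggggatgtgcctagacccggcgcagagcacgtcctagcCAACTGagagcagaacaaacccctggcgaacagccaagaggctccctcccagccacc
Cav1, beta start, chr6:17307390-17307639: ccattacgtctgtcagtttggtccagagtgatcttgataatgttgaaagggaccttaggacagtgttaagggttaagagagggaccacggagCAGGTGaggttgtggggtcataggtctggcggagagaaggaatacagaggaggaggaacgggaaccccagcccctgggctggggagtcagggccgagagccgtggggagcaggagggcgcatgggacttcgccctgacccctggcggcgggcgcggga
Cav3, chr6:112459255-112459504: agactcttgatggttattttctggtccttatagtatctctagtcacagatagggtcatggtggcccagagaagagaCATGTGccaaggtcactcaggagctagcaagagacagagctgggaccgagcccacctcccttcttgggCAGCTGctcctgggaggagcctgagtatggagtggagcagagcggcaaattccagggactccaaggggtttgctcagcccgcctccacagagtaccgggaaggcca
Cavin4, chr4:48663264-48663513: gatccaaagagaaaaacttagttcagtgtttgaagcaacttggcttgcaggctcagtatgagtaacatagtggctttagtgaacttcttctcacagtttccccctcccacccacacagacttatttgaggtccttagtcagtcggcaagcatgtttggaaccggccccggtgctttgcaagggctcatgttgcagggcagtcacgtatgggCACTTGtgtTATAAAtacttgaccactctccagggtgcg
The window before the beta start lies in the first intron of Cav1-201.

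The GC content of these windows was 59.6% for the Cav1 alpha start, 60.8% for the beta start, 56.0% for Cav3 and 48.8% for Cavin4, beside a median of 52.4% over 32536 promoters. Cavin4, the gene under 1 TPM, held a TATA box 30 bases before its start, and 12.3% of all promoters of this length hold one. The TATA match of Cav1 lay farther out, 221 bases before the start. E-boxes were found in 66.2% of all promoters and in each of the windows shown. They lay 174 and 106 bases before the start of Cav3, 57 before the Cav1 alpha start, 158 before the beta start and 39 before Cavin4. Cav2 held them as well. The GC box was found in 33.0% of all promoters, in Cav2 and Cavin1 as well as at the Cav1 alpha start. Cav2 had 62.0% GC, and the window of Cavin2 was the most AT-rich of the members matched, at 40.4% GC. CCAAT, a motif in 33.8% of all promoters, had a match in Cavin2, Cav2 and Cavin1. CArG boxes, in 1.48% of all promoters, and MEF2 boxes, in 2.89%, had no match in the member windows, which says only that these letters are not in these bases.

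Genes listed for products that act at the caveolar neck, bind the coat or take part in scission were present with the coat. Of 12 such genes, 11 were expressed, with a median mean level of 27.7 TPM. None of the 11 tested was 2-fold apart between pups, where only 1.98% of all tested genes were. Their median log2 ratio was -0.04, with 6 below 0 and 5 above, beside -0.01 over all genes. Flna, the actin cross-linker filamin A that ties caveolae to stress fibres, stood highest at 1149.11 TPM in pup 1 and 1095.65 TPM in pup 2. Ehd4 stood at 118.09 and 108.63 TPM and Ehd1 at 111.35 and 100.61 TPM, both ATPases of the EHD family.

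Ehd2, the ATPase that encircles the caveolar neck and holds it at the surface, was singled out after its values were seen. It stood at 111.26 TPM in pup 1 and 78.65 TPM in pup 2, with a log2 ratio of -0.26, the lowest of its list and the value that Cavin1 also had. Pacsin2, an F-BAR protein that shapes the neck, stood at 42.31 and 37.17 TPM, and Dnm2, the dynamin that cuts vesicles free, at 66.41 and 63.48 TPM. Pacsin3, the form known from muscle, stood at 17.02 and 14.33 TPM. Pacsin1, the neuronal form, was under the threshold with 0.32 and 0.59 TPM. These 4 were likewise chosen after their values were seen.

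Receptors, channels and kinases described in caveolae were expressed in 18 of 19 cases, with a median mean level of 18.6 TPM. Of the 18 tested, 9 lay below 0 and 9 above, at a median log2 ratio of -0.00, beside 52.8% of all genes below 0 and a median of -0.01. None was 2-fold apart, where only 1.98% of all tested genes were. P2rx1, an ion channel opened by ATP, led with 407.31 TPM in pup 1 and 389.8 TPM in pup 2. Dag1, which encodes the dystroglycan that joins the cytoskeleton to the matrix, stood at 90.58 and 70.4 TPM, with the lowest log2 ratio of the list, -0.30. Nos3, the endothelial nitric oxide synthase that caveolin-1 is known to hold inactive, was low at 1.99 and 2.45 TPM, and the adrenergic receptor gene Adra1a was under the threshold at 0.03 and 0.07 TPM. The last 2 were chosen after their values were seen.

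Flotillins and related scaffolds build other membrane domains and were the nearest comparison for the coat. Of 10, 9 were expressed, with a median of 85.4 TPM, below the 168 TPM median of the caveolins and cavins. The highest, Phb2, Stoml2 and Phb, encode mitochondrial scaffolds and stood at 139 to 179 TPM on average. Flot1 stood at 109.78 and 110.1 TPM and Flot2 at 94.4 and 86.71 TPM, both chosen after their values were seen. The 9 log2 ratios ran from -0.10 to 0.17, a narrower range than the -0.38 to 0.47 of the caveolins and cavins; this difference was not tested.

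**Figure D4:**
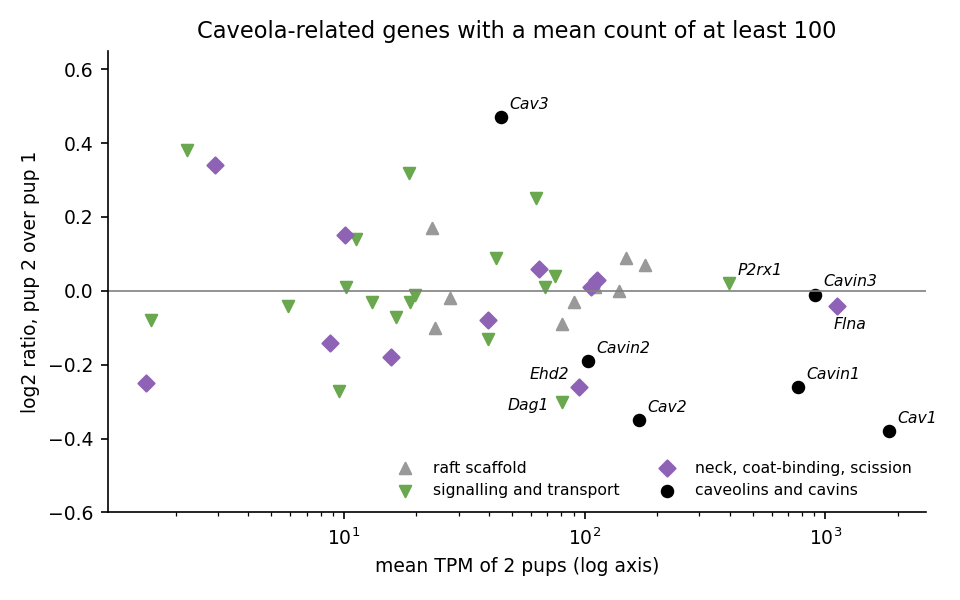
Log2 ratio of pup 2 over pup 1 against mean TPM on a log axis for genes averaging 100 counts or more: caveolins and cavins (circles), neck, coat-binding and scission genes (diamonds), signalling and transport genes (inverted triangles) and raft scaffold genes (triangles). Cav1 lies farthest right at -0.38, Cav3 highest at 0.47, and Ehd2 and Dag1 lie at -0.26 and -0.30.

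Of the cell types known to be rich in caveolae, smooth muscle, fibroblasts and endothelium had every listed marker expressed, and adipocytes did not. The smooth muscle list summed to 71643 TPM in pup 1 and 64727 TPM in pup 2, led by Actg2, Acta2 and Tpm2, and Cav1 stood at 0.123 and 0.0986 of the Acta2 level. Of its 12 genes, 10 were lower and 2 higher in pup 2, with a median log2 ratio of -0.07 and a range from -0.35 to 0.06, where 52.8% of all genes were lower at a median of -0.01. The fibroblast list, with 10 of 10 expressed, summed to 11011 and 9557 TPM, and 8 of its 10 genes were lower in pup 2. The endothelial list, with 12 of 12 expressed, summed to 179 and 200 TPM, led by Egfl7, Cldn5 and Esam, with 4 of 11 tested genes lower and 7 higher in pup 2. The adipocyte list had 5 of 10 expressed and sums of 949 and 808 TPM, of which Fabp4, also known from endothelium and macrophages, gave 827.7 and 685.5 TPM. Among the 5 genes not expressed, Adipoq, Cidec and Lep were at 0 counts. Naming these genes was a later choice, made with their levels known. The urothelial list summed to 9991 and 9523 TPM, with 4 of 12 genes lower and 8 higher in pup 2 by scaled counts. Sums of TPM in pup 2 were 0.903 of those in pup 1 for smooth muscle, 0.868 for fibroblasts, 0.851 for adipocytes, 0.890 for striated muscle and 0.953 for urothelium, and above 1 for the endothelial, macrophage and erythroid lists. As a ratio of TPM, 67.4% of all genes were lower in pup 2, with a median log2 ratio of -0.10, so a lower sum was the more common case. Cav1, Cav2 and Cavin1 were lower in pup 2 and Cav3 higher. The part of these markers in the differences of the members was not tested.

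Cav3 and Cavin4, the muscle-type caveolin and cavin, did not stand at like levels: Cav3 was 115 times the Cavin4 level in pup 1 and 339 times in pup 2, where Cavin4 rested on 7 counts. Of 16 striated muscle genes, 9 were expressed, and the list summed to 9072 TPM in pup 1 and 8069 TPM in pup 2. Acta1, the skeletal muscle actin, gave 7282.78 and 6667.5 TPM of it, Ckm, the muscle creatine kinase, 656.19 and 599.67 TPM, and Tnnt3, a fast troponin subunit, 666.83 and 428.66 TPM. Next by mean TPM came Tnnc2, at 395.98 and 333.55 TPM, and Myh8, at 26.49 and 15.87 TPM. They were followed by Myh2 at 18.92 and 7.79 TPM and Tnni2 at 15.23 and 10.64 TPM. The lowest of the list were Ttn, which encodes a sarcomere protein, at 0.08 and 0.04 TPM, Myod1 at 0 and 0.02 TPM, and Myog at 0 in each pup. Naming the striated genes after Tnnt3 was a later choice, made with their levels known. Of the 9 tested striated genes 8 were lower in pup 2, at a median log2 ratio of -0.42, beside 52.8% of all genes at a median of -0.01. Their ratios ran from -1.21 to 0.28, and Acta1 and Ckm were each at -0.04. Cav3 was higher in pup 2, at 0.47. Cav3 stood at 0.0596 of the Ckm level in pup 1 and 0.0847 in pup 2. The part of striated muscle RNA in the Cav3 level was not tested.

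**Figure D5:**
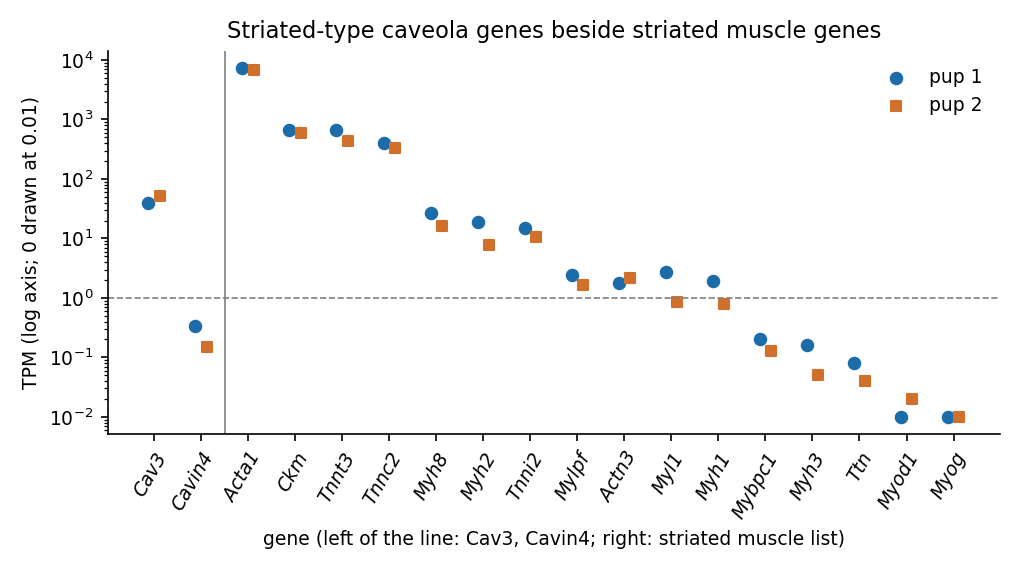
Level in TPM on a log axis of Cav3 and Cavin4 (left of the vertical line) and of 16 striated muscle genes (right), pup 1 as circles and pup 2 as squares; values of 0 are drawn at 0.01 and the dashed line marks 1 TPM. Cav3 lies at 39.11 and 50.8 TPM, between Tnnc2 and Myh8, while Cavin4 lies under the line with Ttn and Myog.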

How the data were processed

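Total RNA-seq of 2 newborn bladders was analysed from the files that the authors deposited, 1 gene and 1 transcript file per library, on mm10 with GENCODE M4 per the labels and files. Their column layout is that of RSEM; what aligner, versions and strand use produced them is not given in the sources used here. Expected counts, which the authors deposited as reads estimated for each gene, were rounded for scaling. The deposited TPM and FPKM values are per length and depth, and the deposited IsoPct is the percent of a gene's TPM per transcript. Deposited posterior SDs describe the estimator's division of reads. Totals were 43653536 and 32564256 expected counts over mouse genes, leaving out spike-in entries and 26248 numeric entries; 42462 genes matched GENCODE M21 and 884 did not.

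Log2 ratios of pup 2 over pup 1 used TMM factors (edgeR 4.0.16, R 4.3.3) over genes with at least 10 counts in sum, with exact 95% intervals, and DESeq2 1.42.0 size factors were an alternative. Calls needed a mean count of at least 100. No test of one pup against the other was run, since it has no residual degrees of freedom. The scripts were tested on simulated data. Proteins were translated from GENCODE M21 with Biopython 1.88, and promoters came from RefSeq; tables were made with Python 3.11.15. RefSeq promoters were matched for 6 members. Replicate numbers follow the labels. The members, gene lists and tests were chosen with earlier results of these data known. Genes named were all members, up to 3 per list by mean TPM, and genes marked as chosen later; 1 gene under this rule is not reported here.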

Additional observations from a re-analysis of the deposited data

How the results depend on the processing

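Of the caveolins and cavins, 6 were expressed under each of the 6 alternatives run, with either pup left out (6 to 6) included. No log2 ratio changed sign under DESeq2 size factors, total counts, spike-in counts or TPM ratios. The median log2 ratio of all genes was -0.01 with TMM and -0.10 with TPM ratios, and Cavin3 was at -0.01 and -0.10, each at the median of all genes. No member was 2-fold apart under the other scalings or at 1.5-fold. Without a minimum count 1 was, Cavin4, and at 1.2-fold, a limit chosen after seeing the data, 3 were. At that limit the count lower in pup 2 was 2 with TMM, DESeq2 or total counts, 3 with spike-in counts and 4 as a ratio of TPM, and the count higher was 1 in each, all chosen after seeing the data. The cavin to caveolin ratio ran from 0.813 to 0.945 with either pup left out and was 0.786 from expected counts, which are not per length. With the GENCODE M21 length of Cavin3, added after seeing the data, it was 0.699, with Cavin3 at 540 TPM. Both are lower limits, because the longer length was set against counts that lack reads on the added bases. Restricted to genes with more than 1 transcript, also added later, the same leading transcript was found in 3 of 3. No paired analysis was possible because there was only 1 group. A count of 20 and 7 for Cavin4 limits what can be said of it, and the 2 littermates of unrecorded sex limit every spread.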
